A study of Rattus norvegicus with 12 samples.

Results

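The Hox genes encode homeodomain transcription factors that give cells along the head-to-tail axis their regional identity. In mammals they lie in 4 clusters, A to D, and each gene carries a paralog number that follows its place in the cluster. Genes with low paralog numbers act towards the head and genes with high numbers towards the trunk, limbs and tail. Fibroblasts of adult skin keep a Hox code of the body region they came from, and Polycomb proteins hold the silent genes of a cluster off while Trithorax proteins hold the active ones on. Levels and treatment differences of the Hox genes were followed here in skin-derived precursors (SKPs), dermal precursor cells that grow as floating spheres.

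Every feature of the array with exactly 1 gene symbol of the Hox A to D form was taken, whatever its value. This gave 31 Hox genes of 18166 genes, each with 1 feature. Cluster A, on rat chromosome 4, had 8, cluster B on chromosome 10 had 10, cluster C on chromosome 7 had 7 and cluster D on chromosome 3 had 6. Hox genes without such a feature were not analysed here.

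The cells came from newborn Sprague-Dawley rat pups, and 3 independent isolates were used. All groups grew in medium with FGF2 at 40 ng/ml, EGF at 20 ng/ml and B27 at 2%, and the cells of dissociated secondary spheres were exposed for 24 h. The groups were trimebutine maleate at 100 nM together with trametinib at 100 nM, alprostadil at 100 nM, trimebutine maleate at 100 nM, and vehicle. Each had 3 Affymetrix Rat Gene 2.0 ST arrays, numbered 1 to 3 in each group. Alprostadil is the prostaglandin E1 drug, trimebutine a drug for disorders of gut motility, and trametinib an inhibitor of MEK, the kinase upstream of ERK. The body region of the skin is not given in the sources used here.

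Array medians of the log2 values lay between 6.409 and 6.505, and 2 arrays of the same group had correlations of 0.989 to 0.995 over all genes. All 14 dermal fibroblast and precursor markers lay above the low-signal limit described next, with mean levels of the list from 11.21 to 11.40. The 6 keratinocyte markers measured had list means from 5.56 to 5.81. Only 1 of these 6 had a mean under the limit, and the other 5 were tested. Macrophage and leukocyte markers were measured too, with list means from 7.70 to 9.23, and they differed between the replicate numbers as described further on. The number of arrays limits the precision of every value. Differences are between mean log2 values of 3 arrays each, with the standard error (SE) of a limma fit across 13636 genes, and adjusted p-values are Benjamini-Hochberg values over all of these genes. A gene passed at an adjusted p under 0.05.

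Sequences of microRNAs and promoters of the Hox clusters are shown first. MicroRNA genes lie inside the Hox clusters, and in mouse the miR-196 family is known to act on Hox messenger RNAs. The mature sequences below are those of RefSeq on GRCr8, 5′ to 3′, with the seed (bases 2 to 8) in capitals. They show that the 3 miR-196 members share 1 seed while miR-615 has another.
miR-196a-5p: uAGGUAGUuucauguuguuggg
miR-196b-5p: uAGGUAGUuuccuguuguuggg
miR-196c-5p: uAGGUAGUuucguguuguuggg
miR-615: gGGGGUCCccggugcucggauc
The first lies at chr7:135988900-135988921 on the plus strand in cluster C, the second at chr4:82661149-82661170 on the minus strand in cluster A, the third at chr10:81727561-81727582 on the plus strand in cluster B, and miR-615 at chr7:136030369-136030390 on the plus strand, inside the gene Hoxc5.

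RefSeq promoters on GRCr8, 250 bases before to 50 after a gene's start, were at hand for 15 of the 31 members as 16 entries. Those of Hoxa9 and Hoxa2 are shown because Hoxa9 rose with alprostadil and both genes rose when trametinib was added to trimebutine. Hoxc9, which also rose in both comparisons, had no entry, nor had Hoxb3, Hoxc8 and Hoxc10. Hoxa9 (chr4:82656999-82657298, minus strand) has letter matches in capitals. In this order they match the TATA box (TATAAA), the core of the cyclic AMP response element (TGACG) and the CCAAT box. Counted from the gene's start they begin at -157, -74 and -62.
Hoxa9: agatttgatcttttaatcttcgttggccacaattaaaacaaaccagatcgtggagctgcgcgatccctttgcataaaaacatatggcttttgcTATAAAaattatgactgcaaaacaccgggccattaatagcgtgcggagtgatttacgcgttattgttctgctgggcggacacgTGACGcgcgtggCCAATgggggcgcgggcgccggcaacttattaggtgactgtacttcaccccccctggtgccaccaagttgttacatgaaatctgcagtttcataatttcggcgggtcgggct
Hoxa2 (chr4:82595643-82595942, minus strand) has in capitals 4 CCAAT boxes, 1 of them on the opposite strand, and a HOX-PBX composite site (TGATNNAT, here on the opposite strand), the kind of site that a Hox protein binds together with its cofactor.
Hoxa2: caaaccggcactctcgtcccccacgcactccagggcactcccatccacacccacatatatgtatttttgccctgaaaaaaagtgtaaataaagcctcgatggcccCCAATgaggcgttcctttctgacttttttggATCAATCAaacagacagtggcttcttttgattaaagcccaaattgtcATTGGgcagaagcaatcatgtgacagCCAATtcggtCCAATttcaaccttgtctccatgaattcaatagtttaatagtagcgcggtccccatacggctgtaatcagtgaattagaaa

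On either strand, TGACG was in 21.2% of the 33469 promoters of the table, CCAAT in 37.5%, TATAAA in 14.2% and TGATNNAT in 9.1%. Among the 16 Hox entries TGACG was in 4 (Hoxa6, Hoxa9, Hoxb1 and Hoxd4), CCAAT in 11 and TATAAA in 4. TGATNNAT was in 3 (Hoxa2, Hoxa7 and Hoxb1). The full cyclic AMP element TGACGTCA, in 1.83% of all promoters, and the AP-1 site TGANTCA, in 7.33%, were in none of the 16. The ETS core with its flank (CCGGAA), in 15% of all promoters, was in 4. TGACG lies within TGACGTCA, so these searches overlap. With alprostadil, set against vehicle, Hoxa6 differed by 0.24, Hoxb1 by -0.08 and Hoxd4 by -0.12, and none of them passed. Such matches are letters in a window and not measured binding. Whether the sequences shown bear on the Hox differences was not tested.

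Of the 31 Hox genes, 24 had a mean log2 level above the low-signal limit of 5.83 (at the 25th percentile over all features that had 1 symbol), and were tested. These were 6 in cluster A, 9 in cluster B, 6 in cluster C and 3 in cluster D. Hoxb5 (5.87) lay just inside the limit and Hoxd12 and Hoxa10 (both 5.68) just outside it. The other members under it were Hoxa13 (5.25), Hoxb13 (5.52), Hoxc12 (5.16), Hoxd1 (4.82) and Hoxd13 (4.99). Of these 7, 6 have paralog numbers of 10 and above, and among the 24 tested genes that range holds Hoxc10, Hoxc13 and Hoxd10.

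Probes of different genes differ in brightness at the same amount of RNA, so the levels of 2 genes are not set against each other here. Hoxc8, a gene of thoracic patterning, had values from 10.27 to 10.93 over the 12 arrays. Hoxc9, its neighbour, had 8.83 to 9.48 and Hoxa6 8.07 to 8.95. Hoxc13, which in mouse and human controls hair and nail keratin genes, lay above the limit on all 12 arrays with 6.76 to 7.12. The range of a gene over the 12 arrays was widest for Hoxa5 (1.08) and, among tested genes, narrowest for Hoxb1 (0.24). The spans of some Hox genes overlap those of other genes in GRCr8. Hoxa4, Hoxa5 and Hoxa6 overlap Hoxa3, Hoxc4 and Hoxc5 overlap Hoxc6, and Hoxb5 and Hoxb6 overlap the gene Hoxb5os. Hoxb3 and Hoxd4, which are called below, overlap an uncharacterised gene each, and Hoxd4 also Mir10b. Which transcripts their probes read could not be told from the files, so the signal of such a feature is uncertain. In these bulk samples, fewer cells of a type and less RNA per cell cannot be told apart.

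**Figure D1:**
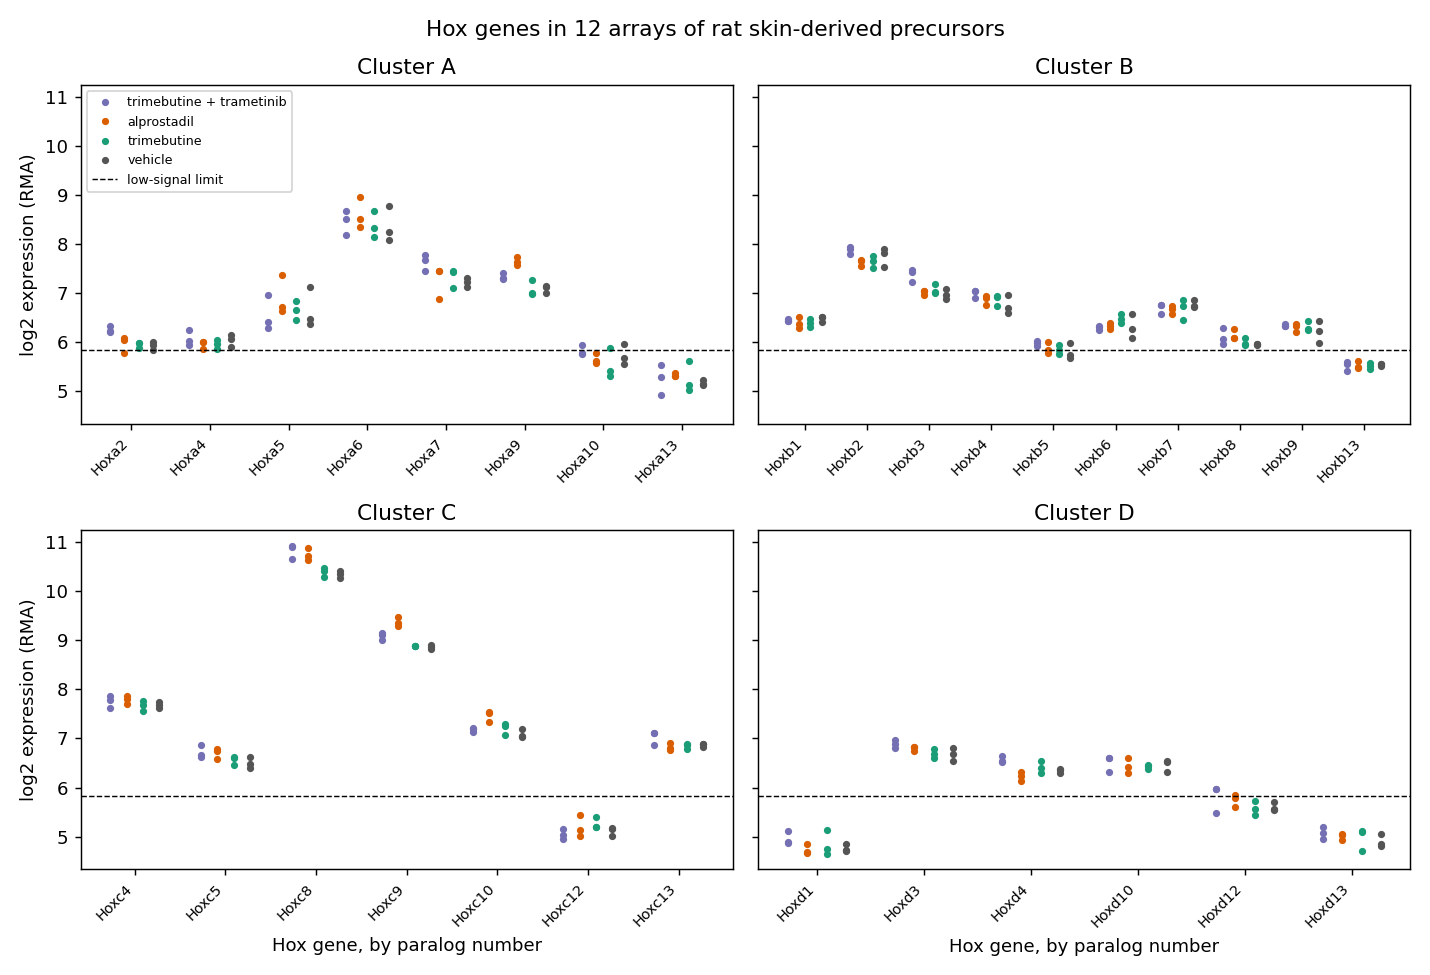
Log2 expression (RMA) of each of the 31 Hox genes on the 12 arrays, by cluster and paralog number; each point is 1 array, coloured by treatment, and the dashed line is the low-signal limit of 5.83. Points of the 4 treatments lie close together for most genes, with Hoxc8 between 10.27 and 10.93 and 7 genes centred under the line.

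Alprostadil was first set against vehicle. Hoxa9 and Hoxc9 rose with alprostadil and no Hox gene fell. Both are paralogs of number 9, which act in the trunk and, for Hoxa9, also in limb and blood-forming cells. Of the 24 Hox genes tested, 2 rose (8.33%), whereas 0.389% of all 13636 genes passed, 0.323% higher and 0.0660% lower. The median Hox difference was 0.08, beside -0.01 over all genes, and 17 of the 24 lay above 0.

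Hoxc9 had 9.30, 9.36 and 9.48 on the alprostadil arrays 1 to 3, against 8.90, 8.83 and 8.87 on the vehicle arrays. The groups did not overlap, and each alprostadil array lay above the vehicle array of its number by 0.40, 0.54 and 0.61. Hoxc9 was higher by 0.51, or 1.43-fold (SE 0.06, adjusted p = 0.00324). Hoxa9 had 7.63, 7.58 and 7.73 with alprostadil, against 7.15, 7.12 and 7.01 with vehicle. The lowest alprostadil array thus lay above the highest vehicle array, and Hoxa9 was higher by 0.56, or 1.47-fold (SE 0.08, adjusted p = 0.0114).

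The Hoxa9 call did not hold without vehicle array 2 (adjusted p = 0.0561), vehicle array 3 (0.0667), alprostadil array 1 (0.0505) or alprostadil array 3 (0.0610), with differences from 0.51 to 0.57 in these fits. Hoxc9 passed without each of the 12 arrays in turn. It missed the threshold when only the alprostadil and vehicle arrays entered the fit (adjusted p = 0.0525).

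The replicate numbers pair the arrays of different groups, since arrays of the same number deviated together. With the number as a block in the fit, Hoxc8 and Hoxc10 passed as well, for 4 Hox genes that rose (16.7%), beside 1.17% of all genes higher and 0.711% lower (1.88% in all). Hoxc8 had 10.63, 10.72 and 10.87 with alprostadil, against 10.35, 10.27 and 10.42 with vehicle. Its groups did not overlap, with a difference of 0.39 (SE 0.09, adjusted p = 0.150, and adjusted p = 0.0110 with the block). Hoxc10, a lumbar patterning gene, had 7.53, 7.34 and 7.54 with alprostadil, against 7.19, 7.04 and 7.03 with vehicle. It too had groups apart, with a difference of 0.38 (SE 0.08, adjusted p = 0.0928, and adjusted p = 0.0183 with the block). The count with the block was 2 without vehicle array 2 or 3 or without any 1 alprostadil array, and 3 without vehicle array 1. Hoxa9 and Hoxc9 passed in each of these fits, in which the adjusted p of Hoxc8 was up to 0.0779 (without vehicle array 2) and that of Hoxc10 up to 0.109 (without vehicle array 3).

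Hoxb8 also had every alprostadil array (6.27, 6.08 and 6.08) above every vehicle array (5.96, 5.95 and 5.96), with a difference of 0.19 that did not pass (adjusted p = 0.715). So 5 of 24 Hox genes (20.8%) were wholly higher with alprostadil, beside 5.41% of all genes, and none was wholly lower, beside 6.19%. Hoxc5, whose p was the smallest after those of Hoxa9, Hoxc8, Hoxc9 and Hoxc10, had 6.74, 6.79 and 6.59 in alprostadil cultures, against 6.62, 6.48 and 6.4 in vehicle cultures. These overlapped and the difference of 0.20 did not pass (adjusted p = 0.659).

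By paralog number, a grouping chosen after the values were seen, the 7 tested genes of numbers 8 to 10 had a median alprostadil difference of 0.38 and held both calls. They were Hoxa9, Hoxb8, Hoxb9, Hoxc8, Hoxc9, Hoxc10 and Hoxd10, from -0.03 for Hoxd10 to 0.56 for Hoxa9. The 9 genes of numbers 1 to 4 had a median of 0.04, from -0.12 to 0.12, and the 7 of numbers 5 to 7 a median of 0.07, from -0.10 to 0.25. No gene of these groups passed, with or without the block. Hoxc13 differed by -0.03 (adjusted p = 0.975). By cluster the medians were 0.14 for A, 0.04 for B, 0.29 for C and -0.03 for D.

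Markers of other cells and of the cell cycle were read beside these differences. None of 14 cell cycle markers passed for alprostadil, and their list means were 9.32 to 9.63 in alprostadil cultures and 9.50 to 9.91 in vehicle cultures (median difference -0.22). None of 12 macrophage and leukocyte markers passed (list means 7.70 to 9.23 with alprostadil and 7.97 to 9.10 with vehicle), and with the block Adgre1 fell by 0.83 on the log2 scale (adjusted p = 0.00544). Of 14 dermal markers none passed, and with the block Twist2 rose by 0.33 (adjusted p = 0.102, and adjusted p = 0.0159 with the block). Keratinocyte, melanocyte, Schwann cell and endothelial markers gave no call with or without the block. The part of these cells in the Hox differences was not tested.

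**Figure D2:**
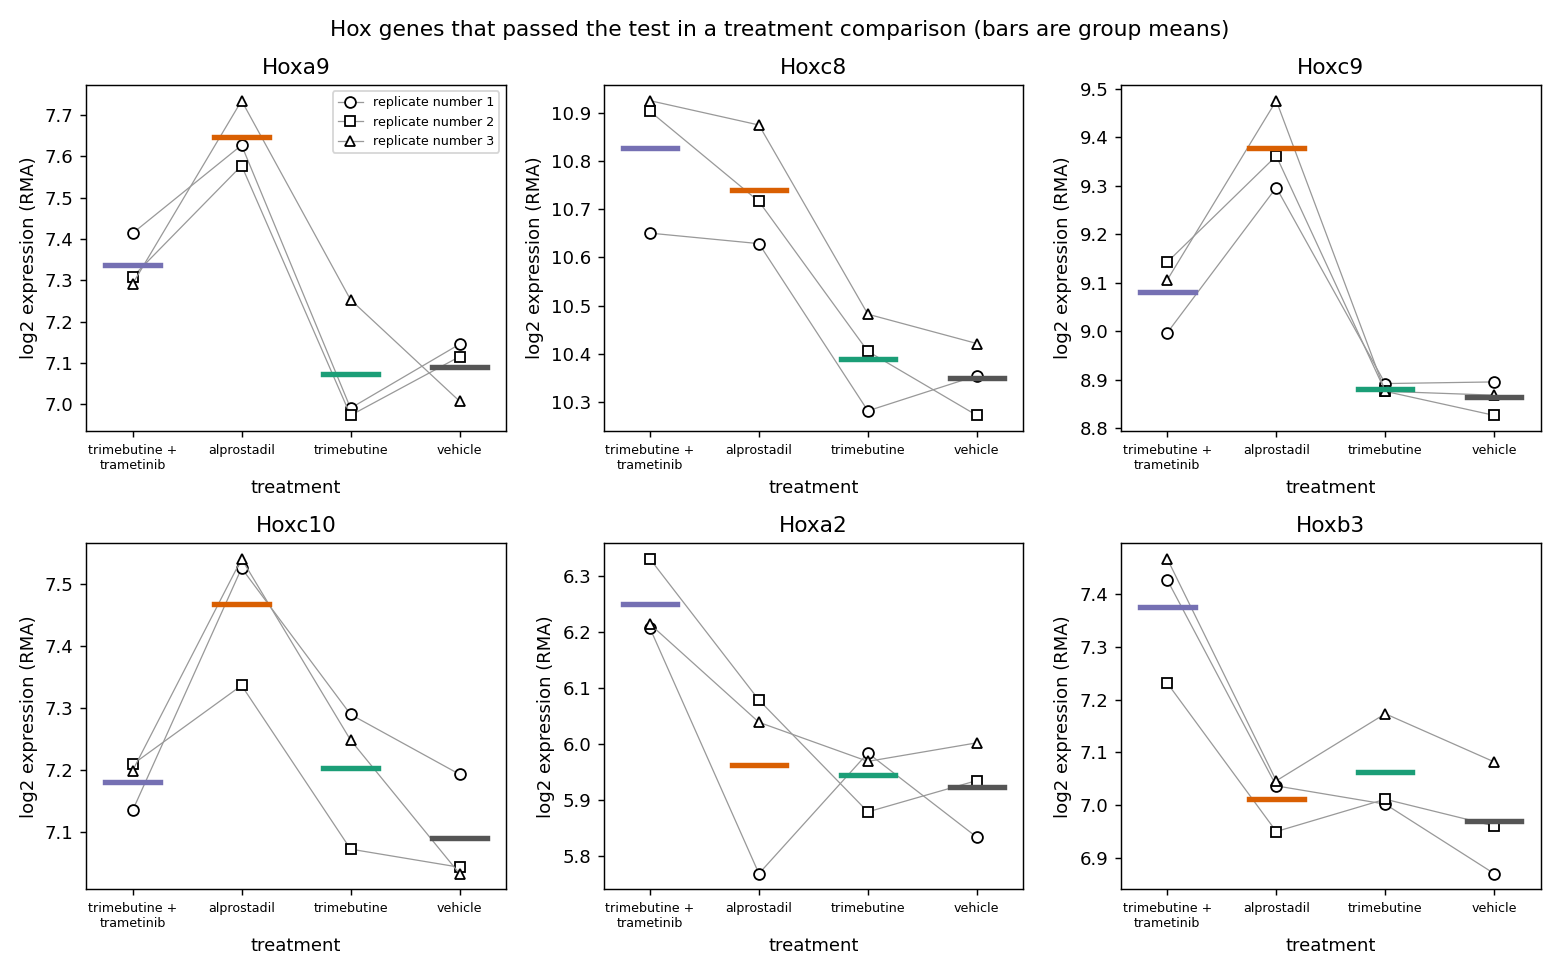
Log2 expression (RMA) of 6 Hox genes on each array by treatment; thin lines join arrays of the same replicate number and thick bars are group means of 3 arrays. Hoxa9, Hoxc9 and Hoxc10 are highest with alprostadil, while Hoxa2 and Hoxb3 are highest with trimebutine plus trametinib and Hoxc8 is high in both.

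The addition of trametinib was read in cells that had trimebutine in both groups, since no group had trametinib alone. Against trimebutine alone, Hoxa2, Hoxb3, Hoxa9, Hoxc8 and Hoxc9 rose and no Hox gene fell. They span the axis from Hoxa2 and Hoxb3, which pattern the hindbrain and branchial arches, to the trunk genes Hoxc8 and Hoxc9. Of all 13636 genes, 33.4% passed in this comparison, 16.8% higher and 16.6% lower. The 5 of 24 Hox genes that rose (20.8%) are thus a share near that background, and the differences were small, from 0.20 to 0.44. The median Hox difference was 0.12, beside 0.03 over all genes, and 21 of the 24 lay above 0.

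Hoxc8 had 10.65, 10.90 and 10.93 with trametinib added, against 10.28, 10.40 and 10.48 with trimebutine alone. The groups were apart, and Hoxc8 was higher by 0.44, or 1.35-fold (SE 0.09, adjusted p = 0.00332). Hoxb3 had 7.43, 7.23 and 7.47 with trametinib added, against 7.0, 7.01 and 7.17 with trimebutine alone. Its groups were apart too, with a rise of 0.31 (SE 0.08, adjusted p = 0.0114). Hoxc8 and Hoxb3 passed without each of the 12 arrays in turn, with and without the block, and under the other alternatives run.

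Hoxa2 had 6.21, 6.33 and 6.21 in cells with trametinib added, against 5.98, 5.88 and 5.97 in cells with trimebutine alone. It rose by 0.31 (SE 0.08, adjusted p = 0.0154). Without the block, the call did not hold without trimebutine array 2 (adjusted p = 0.0584) or combination array 2 (0.0630). With the block Hoxa2 passed without each of the 12 arrays in turn. Hoxa9 had 7.41, 7.31 and 7.29 with trametinib added, against 6.99, 6.97 and 7.25 with trimebutine alone. It rose by 0.27 (SE 0.08, adjusted p = 0.0271), with 1 trimebutine array close to the combination arrays. Its call did not hold without trimebutine array 1 (adjusted p = 0.101), trimebutine array 2 (0.104), combination array 1 (0.0918) or combination array 2 (0.0538). With the block Hoxa9 passed in 8 of the 12 fits that left out 1 array.

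Hoxc9 had 9.0, 9.14 and 9.11 with trametinib added, against 8.89, 8.88 and 8.88 with trimebutine alone. It rose by 0.20 (SE 0.06, adjusted p = 0.0260), with groups that did not overlap. The call did not hold without trimebutine array 1 (adjusted p = 0.0601), 2 (0.0672) or 3 (0.0630), or without combination array 2 (0.0967) or 3 (0.0692). With the block Hoxc9 passed in 9 of the 12 fits that left out 1 array. In the fits without the block, 2 Hox genes rose without trimebutine array 2 or without combination array 2. There 3 rose without trimebutine array 1.

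With the replicate block 8 Hox genes rose (33.3%), beside 21.2% of all genes that rose and 42.0% that passed in either direction, and none fell. The added genes were Hoxa7, Hoxb2 and Hoxc13. Hoxa7 had 7.45, 7.67 and 7.77 with trametinib added, against 7.10, 7.45 and 7.42 with trimebutine alone, which differ by 0.30 (adjusted p = 0.158, and adjusted p = 0.0124 with the block). Its replicate numbers differed, as described further on. Hoxb2 had 7.79, 7.90 and 7.93, against 7.66, 7.5 and 7.76 with trimebutine alone, a difference of 0.23 (adjusted p = 0.0890, and adjusted p = 0.0240 with the block). Hoxc13 had 7.12, 7.11 and 6.87, against 6.89, 6.87 and 6.79 with trimebutine alone, a difference of 0.18 (adjusted p = 0.0868, and adjusted p = 0.0454 with the block).

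With the block, Hoxa7 did not pass without trimebutine array 3 (adjusted p = 0.0509). Hoxb2 did not pass without trimebutine array 1 (adjusted p = 0.0601), trimebutine array 2 (0.0964) or combination array 2 (0.124), and without the last its difference was 0.15. Hoxc13 passed in 4 of the 12 fits with the block that left out 1 array, and it did not without vehicle array 2, alprostadil arrays 2 or 3, any 1 trimebutine array, or combination arrays 1 or 2 (adjusted p from 0.0544 to 0.172).

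Every array of the combination lay above every trimebutine array for 7 Hox genes (29.2%), Hoxa2, Hoxa9, Hoxb2, Hoxb3, Hoxc8, Hoxc9 and Hoxd3, beside 24.0% of all genes. The reverse held for Hoxb6 (4.17%), beside 21.8% of all genes. Hoxb6 had 6.30, 6.33 and 6.25 with trametinib added, against 6.46, 6.38 and 6.57 with trimebutine alone, and its difference of -0.18 did not pass (adjusted p = 0.217). By paralog number, 2 of 9 genes of numbers 1 to 4 rose (median 0.16), 0 of 7 of numbers 5 to 7 (median 0.07) and 3 of 7 of numbers 8 to 10 (median 0.11). All 9 genes of numbers 1 to 4 lay above 0.

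The cell cycle stood apart in the same arrays. All 14 cell cycle markers fell when trametinib was added (median -2.29, with Top2a at -3.15 and Mki67 at -2.91), with list means of 7.39 to 7.55 in the combination cultures and 9.45 to 9.87 in the trimebutine cultures. Its part in the Hox differences was not tested. Of 14 dermal markers, 6 rose and 3 fell, with Col3a1 (0.97) and Twist2 (0.83) among the first and Pdgfra (-0.79) among the second. Of the melanocyte markers Dct rose by 0.31, and no keratinocyte, Schwann cell or endothelial marker passed without the block. With the block the Schwann cell marker S100b rose by 0.58 (adjusted p = 0.243, and adjusted p = 1.45e-05 with the block). Of 12 macrophage and leukocyte markers, C1qa rose by 0.52 (adjusted p = 0.00557) and Cd68 fell by 1.03 on the log2 scale (adjusted p = 5.00e-05), with list means of 7.80 to 8.80 in the combination cultures and 7.87 to 9.12 in the trimebutine cultures. With the block 3 of them rose, C1qa, Csf1r (0.31) and C1qb (0.28), and 3 fell, Cd68, Cd14 (-0.68) and Ptprc (-0.47). The part of these cells in the Hox differences was not tested.

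**Figure D3:**
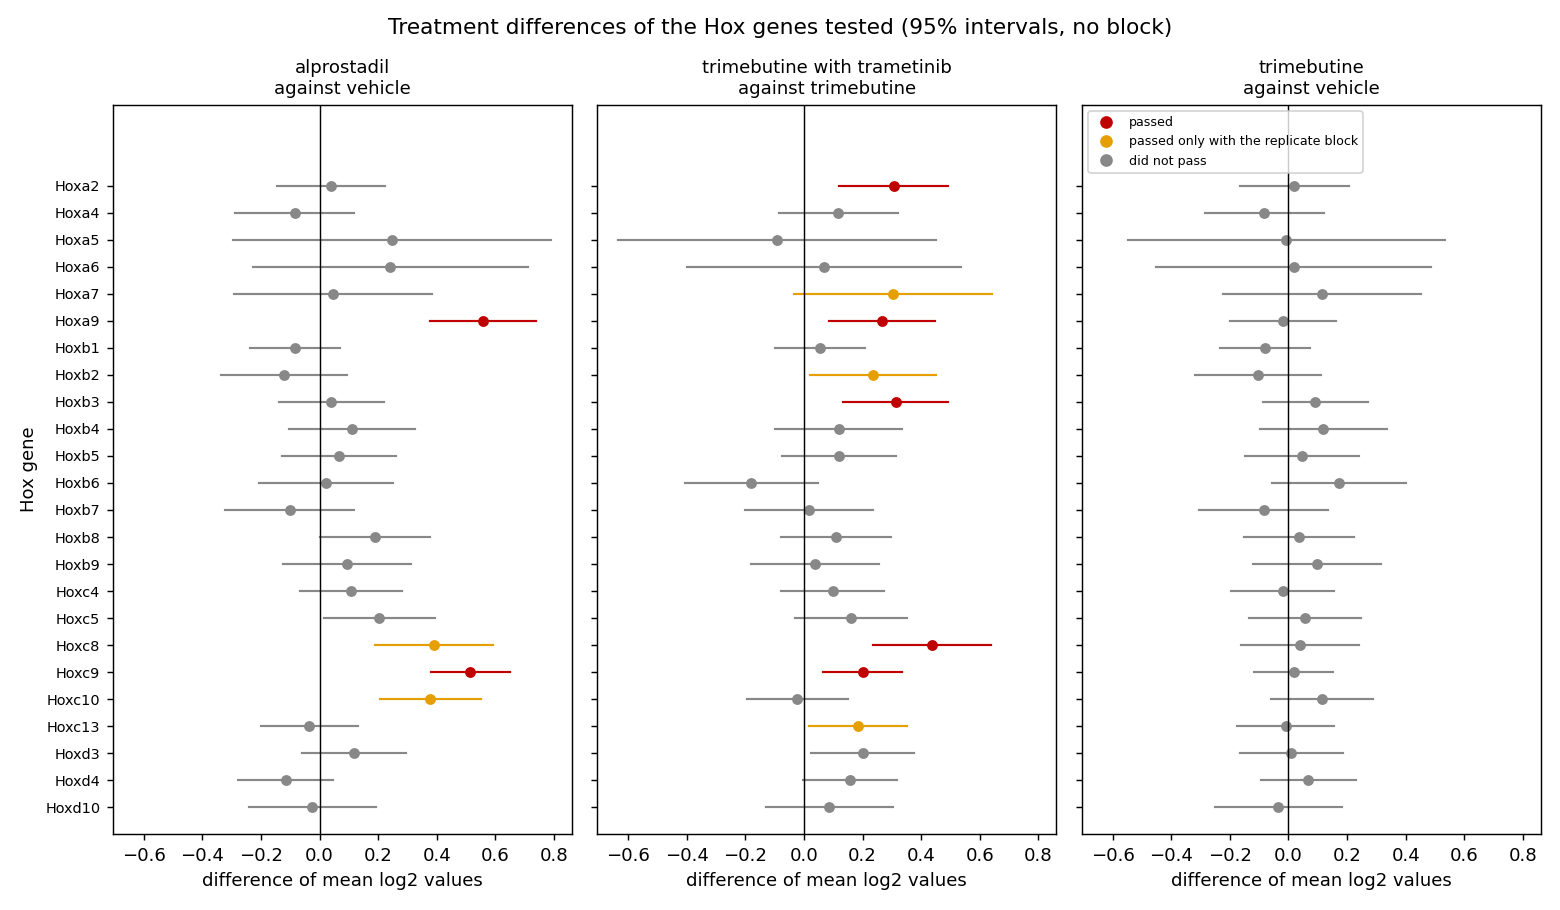
Difference of mean log2 values with its 95% interval for each of the 24 Hox genes tested, in 3 comparisons of 3 arrays against 3; red passed, orange passed only with the replicate block, grey did not pass. For alprostadil the coloured points are Hoxa9, Hoxc8, Hoxc9 and Hoxc10, for the addition of trametinib they run from Hoxa2 to Hoxc13, and for trimebutine all points are grey.

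Set against vehicle, whose arrays also serve the alprostadil comparison, the combination had 6 Hox genes that rose (25%), beside 17.5% of all genes, and none that fell, beside 17.5% (35.0% in either direction). They were Hoxc8 (0.48, adjusted p = 0.00186), Hoxb3 (0.40, adjusted p = 0.00248), Hoxa2 (0.33, adjusted p = 0.0107), Hoxc9 (0.22, adjusted p = 0.0169), Hoxa9 (0.25, adjusted p = 0.0357) and Hoxd4 (0.22, adjusted p = 0.0338). With the block Hoxa7 (0.42, adjusted p = 0.00192) and Hoxb4 (0.24, adjusted p = 0.0468) joined them, for 33.3% beside 22.1% of all genes that rose (43.2% in either direction). Without combination array 2 the count was 3.

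Hoxd4, a paralog of the hindbrain and neck, had 6.64, 6.52 and 6.54 in combination cultures, against 6.30, 6.35 and 6.38 in vehicle cultures. The groups were apart, and the call did not hold without vehicle array 1 (adjusted p = 0.106) or 2 (0.0746), or without combination array 1 (0.110), 2 (0.0521) or 3 (0.0558). Hoxb4, known for its effect on blood stem cells, had 6.89, 7.04 and 7.03 in combination cultures, against 6.69, 6.96 and 6.59 in vehicle cultures, which overlap. Its call with the block held in 4 of 12 fits that left out 1 array. It did not hold without vehicle array 1 (adjusted p = 0.115) or 3 (0.206, with a difference of 0.16), alprostadil array 1 (0.0518) or 2 (0.0590), trimebutine array 2 (0.0623), or combination array 1 (0.0621), 2 (0.0790) or 3 (0.155). The Hoxa9 call against vehicle did not hold without any single array of either group (adjusted p from 0.0504 to 0.114). The Hoxc9 call did not hold without vehicle array 2 (0.0587) or combination array 2 (0.0665). With the block Hoxd4 passed in 8 of the 12 fits that left out 1 array, and Hoxa9 and Hoxc9 in 9 each. Every array of the combination lay above every vehicle array for 9 Hox genes (37.5%), beside 24.9% of all genes, and below every one for none, beside 22.3%. These 9 were the 6 named first, with Hoxa7, Hoxb8 and Hoxc5.

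The combination was also set directly against alprostadil, a comparison chosen after the data were seen. Each drug was given at 100 nM for 24 h, and the contrast tests the difference between their Hox values itself. Hoxa9, Hoxc9 and Hoxc10 were lower with the combination than with alprostadil (12.5% of the 24, beside 18.2% of all genes). Hoxa2, Hoxb3, Hoxd4 and Hoxc13 were higher (16.7%, beside 19.6%). Of all genes, 37.9% passed in either direction. Both shares lie under those of all genes. Of the 7 tested genes of numbers 8 to 10, 3 were lower and 0 higher, with a median of -0.04. Of the 9 genes of numbers 1 to 4, 3 were higher and 0 lower, with a median of 0.13. Most genes of either range thus did not pass, and the alprostadil arrays are those of the comparison with vehicle. An order by paralog number was not tested.

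Hoxc9 had 9.0, 9.14 and 9.11 with the combination, against 9.30, 9.36 and 9.48 with alprostadil, a difference of -0.30 (SE 0.06, adjusted p = 0.00276). Hoxa9 differed by -0.31 (SE 0.08, adjusted p = 0.0117), and the arrays given above do not overlap. Hoxc10 had 7.13, 7.21 and 7.20 with the combination, against 7.53, 7.34 and 7.54 with alprostadil, a difference of -0.29 (SE 0.08, adjusted p = 0.0137). Without alprostadil array 3 Hoxc10 did not pass (adjusted p = 0.0533). With the block it passed without each of the 12 arrays in turn.

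Hoxb3 had 7.43, 7.23 and 7.47 with the combination, against 7.04, 6.95 and 7.05 with alprostadil, a difference of 0.36 (SE 0.08, adjusted p = 0.00428). Hoxd4 had 6.64, 6.52 and 6.54, against 6.12, 6.24 and 6.32 with alprostadil, a difference of 0.34 (SE 0.07, adjusted p = 0.00348). Hoxa2 had 6.21, 6.33 and 6.21, against 5.77, 6.08 and 6.04 with alprostadil, a difference of 0.29 (adjusted p = 0.0189). It did not pass without alprostadil array 1 (0.0620) or combination array 2 (0.0732). With the block Hoxa2 passed without each of the 12 arrays in turn. These 3 genes had no overlap between the groups. With Hoxb2 they make 4 Hox genes wholly higher with the combination (16.7%, beside 26.3% of all genes), while Hoxa9, Hoxc9 and Hoxc10 were wholly lower (12.5%, beside 22.6%).

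Hoxc13 differed by 0.21 with overlapping arrays, at the edge of the threshold (adjusted p = 0.0492), and did not pass in most of the alternatives run. Without alprostadil array 3 its adjusted p was 0.149, and it was 0.0564 to 0.164 over the fits without the block in which losing 1 array ended the call. Hoxc8 differed by 0.09 between the combination and alprostadil (95% interval -0.11 to 0.29), so that a difference of more than 0.29 on the log2 scale lies outside the interval. With the block Hoxa7 (0.37, adjusted p = 0.00364) and Hoxb2 (0.25, adjusted p = 0.0156) were higher and Hoxa5 (-0.35, adjusted p = 0.00931) lower as well, for 25% of the 24 higher beside 24.5% of all genes and 16.7% lower beside 21.9% (46.4% in either direction). Hoxb2 did not pass with the block without alprostadil array 3 (adjusted p = 0.0654) or combination array 2 (0.0820). In the fits with the block Hoxa7 and Hoxa5 passed without each array in turn. Without the block the adjusted p was 0.0797 for Hoxa7, 0.0632 for Hoxb2 and 0.301 for Hoxa5. There Hoxa7 and Hoxa5 passed in 0 of the 12 fits that left out 1 array.

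Trimebutine alone, at 100 nM for 24 h, was compared with vehicle. No Hox gene passed, and no gene of all 13636 did (0%), by limma with or without the block. None of the 24 Hox genes had an unadjusted p under 0.05, which 143 genes had in all. Nor had any Hox gene groups apart, beside 2.17% of all genes wholly higher and 2.06% wholly lower with trimebutine. The 24 Hox differences ran from -0.10 to 0.17 with a median of 0.02. The 5 with the smallest p were Hoxb6 (0.17), Hoxc10 (0.11), Hoxb4 (0.12), Hoxb1 (-0.08) and Hoxb3 (0.09). Hoxb6 had 6.46, 6.38 and 6.57 with trimebutine, against 6.08, 6.57 and 6.26 with vehicle, which overlap. Hoxb1, a hindbrain gene with the lowest paralog number tested, had 6.38, 6.31 and 6.47 with trimebutine, against 6.50, 6.51 and 6.4 with vehicle. Hoxc10 had 7.29, 7.07 and 7.25 with trimebutine, against 7.19, 7.04 and 7.03 with vehicle, and Hoxb3 had 7.0, 7.01 and 7.17, against 6.87, 6.96 and 7.08 with vehicle. All of these groups overlap.

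A p that misses the threshold does not show that the groups are alike, so the intervals are given. In the fit without the block, 23 of the 24 intervals of trimebutine against vehicle lay within 0.5 of 0 on the log2 scale, and that of Hoxa5 reached -0.55 and 0.53. With the block all 24 lay within 0.5, between -0.29 and 0.39.

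The 4 treatments together were compared with a moderated F test. It called 7 of 24 Hox genes (29.2%), beside 32.5% of all genes. These were Hoxc9 (adjusted p = 0.000147), Hoxa9 (0.000552), Hoxc8 (0.00267), Hoxb3 (0.0075), Hoxc10 (0.0135), Hoxd4 (0.0197) and Hoxa2 (0.0270). With the block it called 10 (41.7%), beside 42.7% of all genes. The share of Hox genes is thus near that of all genes in this test.

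The 3 replicate numbers also differed. The study used 3 independent isolates, and the labels do not say whether a number marks 1 isolate. Hoxa5, Hoxa6 and Hoxa7, 3 neighbours in cluster A, passed the test between numbers (3 of 24, 12.5%, beside 14.4% of all genes, which is near that background). Hoxa5, known for its role in lung and in the neck and upper trunk skeleton, averaged 6.45 ± 0.19 in number 1, 6.54 ± 0.11 in number 2 and 7.07 ± 0.23 in number 3 (SD, n = 4 arrays each, adjusted p = 0.00077 by limma). By treatment, its number 3 arrays had 6.96 with the combination, 7.36 with alprostadil, 6.84 with trimebutine and 7.13 with vehicle. Each lay above the arrays of numbers 1 and 2 of the same treatment.

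Hoxa6 averaged 8.22 ± 0.09 in number 1, 8.36 ± 0.21 in number 2 and 8.77 ± 0.13 in number 3 (SD, n = 4 arrays each, adjusted p = 0.00225 by limma). It had 8.17, 8.50 and 8.67 with the combination, 8.35, 8.51 and 8.95 with alprostadil, 8.13, 8.33 and 8.68 with trimebutine, and 8.24, 8.07 and 8.77 with vehicle. Its number 3 array was the highest in all 4 treatments. Hoxa7 averaged 7.13 ± 0.24 in number 1, 7.44 ± 0.18 in number 2 and 7.49 ± 0.20 in number 3 (SD, n = 4 arrays each, adjusted p = 0.0129 by limma). Its alprostadil arrays had 6.87, 7.45 and 7.45 and its vehicle arrays 7.11, 7.21 and 7.30, beside the values given above. Number 1 was the lowest in all 4 treatments, and numbers 2 and 3 differed by 0.04 (SE 0.07). All 3 passed without each of the 12 arrays in turn. In GRCr8 the spans of Hoxa5 and Hoxa6 both overlap Hoxa3 and Hoxaas3, and which transcripts the features read was not tested.

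The next smallest p-values between numbers were those of Hoxc8 (adjusted p = 0.0838), Hoxb2 (0.128), Hoxb3 (0.162), Hoxb9 (0.265), Hoxc10 (0.342), Hoxc13 (0.349) and Hoxb4 (0.375). Hoxb9 had 6.34, 6.37 and 6.32 with the combination, 6.32, 6.21 and 6.37 with alprostadil, 6.23, 6.26 and 6.42 with trimebutine, and 5.98, 6.22 and 6.42 with vehicle. Hoxb2 had 7.64, 7.54 and 7.68 with alprostadil and 7.81, 7.53 and 7.89 with vehicle, with number 2 the lowest in both. Hoxc13 had 6.92, 6.80 and 6.76 with alprostadil and 6.82, 6.88 and 6.88 with vehicle, and Hoxb4 6.74, 6.89 and 6.94 with alprostadil and 6.94, 6.92 and 6.74 with trimebutine, in no common order.

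Other markers moved with the numbers, and their counts are to be read beside the 14.4% of all genes that differed. Of 12 macrophage and leukocyte markers, 10 differed between numbers, with list means of 7.70 to 7.97 in number 1, 8.42 to 8.57 in number 2 and 8.80 to 9.23 in number 3, and all 12 had mean levels above the limit. Of 5 Schwann cell markers S100b differed, of 3 melanocyte markers Mitf, and of 5 keratinocyte and 3 endothelial markers none. Of 14 dermal and precursor markers 2 differed. Sox2 averaged 6.07 in number 1, 6.55 in number 2 and 7.36 in number 3 (adjusted p = 0.00211 by limma), and Nes 8.69, 8.48 and 8.43 (adjusted p = 0.0481 by limma). Of 14 cell cycle markers 5 differed (Plk1, Pcna, Mcm2, Mcm5 and Rrm2), each with its highest mean in number 2. The part of these cells, and of the cell cycle, in the Hox levels of the numbers was not tested.

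**Figure D4:**
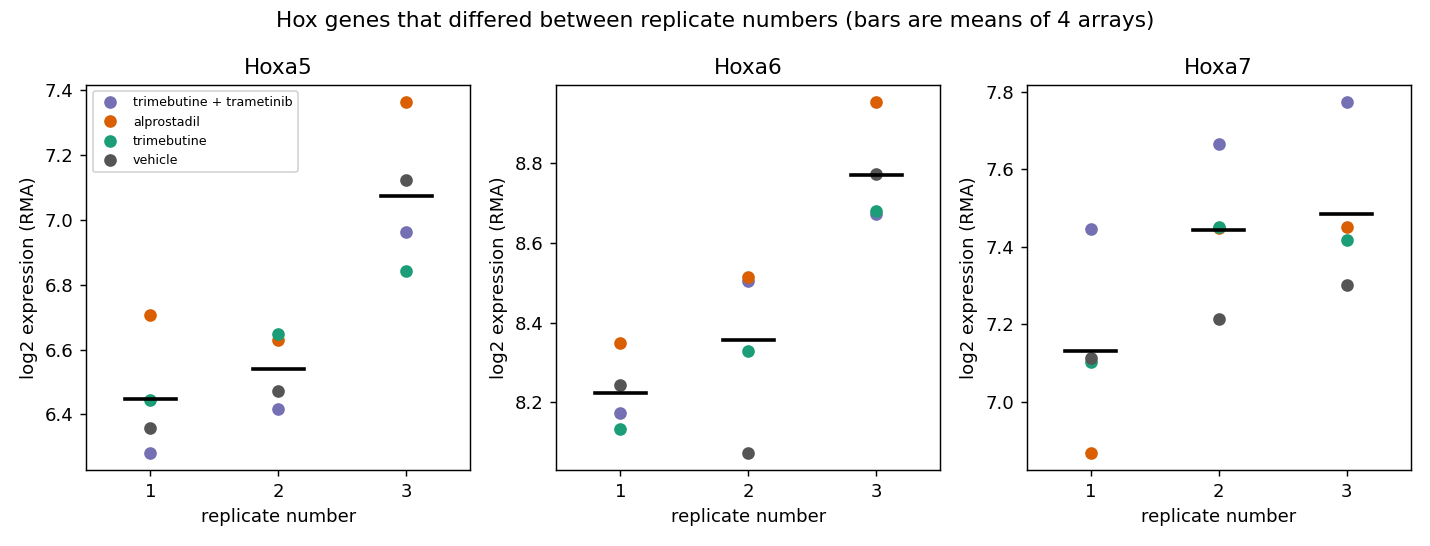
Log2 expression (RMA) of Hoxa5, Hoxa6 and Hoxa7 by replicate number; each point is 1 array, coloured by treatment, and bars are means of 4 arrays. Number 3 has the highest mean for all 3 genes (7.07, 8.77 and 7.49), and for Hoxa7 number 2 (7.44) is close to it.

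Genes that act with or on Hox genes were read in fixed lists. No member of the lists named in the next paragraphs passed for alprostadil or for trimebutine against vehicle without the block. When trametinib was added, 16.8% of all genes rose and 16.6% fell, and the list counts below are to be read beside these shares. Among 8 TALE homeodomain genes tested, the DNA-binding partners of Hox proteins, 2 rose and 1 fell when trametinib was added. Pknox2 had 8.71, 9.04 and 8.33 with trametinib added, against 7.10, 6.91 and 6.78 with trimebutine alone, and rose by 1.76 (SE 0.17, adjusted p = 1.33e-05). Meis1, a partner of Hoxa9 in leukaemia models, had 9.24, 9.11 and 9.42, against 9.78, 9.88 and 9.86 with trimebutine alone, and fell by 0.58 on the log2 scale (SE 0.07, adjusted p = 9.95e-05). Meis3 rose by 0.37 (adjusted p = 0.00366). Pbx2, with the next smallest p, differed by -0.06 (adjusted p = 0.531).

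Of 16 Polycomb genes tested, 7 fell and none rose when trametinib was added, beside 16.6% of all genes that fell (median -0.18). The 7 were Mtf2 (-0.72), Rbbp4 (-0.52), Rbbp7 (-0.38), Pcgf2 (-0.33), Eed (-0.27), Phf19 and Ezh2. Phf19 had 6.45, 6.51 and 6.39 with trametinib added, against 7.95, 8.18 and 7.91 with trimebutine alone, and fell by 1.57 on the log2 scale (SE 0.13, adjusted p = 4.54e-06). Ezh2, the enzyme that methylates histone H3 at lysine 27, had 8.64, 8.47 and 8.44, against 9.10, 9.35 and 8.94 with trimebutine alone, and fell by 0.61 (SE 0.11, adjusted p = 0.00124). The cell cycle markers fell in the same arrays, and their part in the fall of the Polycomb genes was not tested.

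Of 8 genes in the list of Trithorax and demethylase genes, 2 rose and 2 fell, and Dot1l belongs to neither class. Dot1l rose by 1.11 and Kdm6b, a demethylase of that same lysine, by 0.38, while Psip1 fell by 1.07 and Dpy30 by 0.33 on the log2 scale. A further list held genes of retinoic acid handling, Cdx genes and other regulators, not all of which induce Hox genes. Of 17 tested, 3 rose and 3 fell, or 5 and 4 with the block, which adds Cyp26b1 (0.52), Rarb (0.20) and Crabp2 (-0.60). The retinoic acid receptor gene Rarg rose by 0.66, Dhrs3, which turns retinal back to retinol, by 1.17 and Cdx1 by 0.23. Rdh10, which makes retinal, fell by 0.99, the retinoic acid binding protein gene Crabp1 by 1.41 and Gmnn, the geminin gene, by 1.29 on the log2 scale. The cell cycle markers fell in the same arrays, and their part in the fall of Gmnn was not tested. Between replicate numbers 7 of these 17 differed, beside 14.4% of all genes. The 7 include Crabp1, Rdh10, Dhrs3 and the retinoic acid degrading enzyme gene Cyp26b1.

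Genes next to or inside the clusters were read too. Of 19 tested, 5 rose and 4 fell when trametinib was added, with a median of 0.00, and with the block 5 rose and 5 fell, Hibadh (-0.23, adjusted p = 0.0493) being added. Copz2 (0.54) and Nfe2l1 (0.36), near cluster B, rose, and Calcoco1 (-0.55) and Cbx5 (-0.48), near cluster C, fell. The microRNA feature Mir615, whose sequence is given above, was among those that rose. It had 6.24, 6.36 and 6.30 with trametinib added, against 5.80, 5.91 and 6.0 with trimebutine alone, with groups apart and a rise of 0.40 (SE 0.08, adjusted p = 0.00185). Hoxc5, the gene around it, had 6.62, 6.67 and 6.86, against 6.6, 6.62 and 6.45 with trimebutine alone, and its difference of 0.16 did not pass (adjusted p = 0.190). Mir196c, which was added after the data were seen, differed by 0.12 (adjusted p = 0.492), and Mir196a, Mir196b, Mir10a and Mir10b lay under the limit. The labelling was of total RNA for a whole-transcript array, so a microRNA feature can read the precursor or the host transcript, and mature microRNA was not measured.

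Homeobox, T-box and other transcription factor genes outside the Hox clusters that pattern limb, trunk and face skin were read for comparison. Of 24 tested, 4 rose and 3 fell when trametinib was added (median 0.07), a share of 29.2% near the 33.4% of all genes. With the block Tbx18 (0.28, adjusted p = 0.00219) rose as well. Emx2 rose by 0.51, Tbx15, which patterns the dermis of the back in mouse, by 0.44, En1 by 0.43 and Alx1 by 0.23. Alx4 fell by 1.14, Meox1 by 0.66 and Meox2 by 0.60 on the log2 scale. Tbx15 had 10.26, 10.44 and 10.50 with trametinib added, against 9.88, 9.96 and 10.06 with trimebutine alone, with no overlap. With alprostadil it had 10.30, 10.24 and 10.36, against 9.92, 9.89 and 10.08 with vehicle, which are also apart, and it rose by 0.34 in the fit with the block only (adjusted p = 0.15, and adjusted p = 0.0147 with the block). Tbx18 rose with alprostadil in that fit too, by 0.32 (adjusted p = 0.464, and adjusted p = 0.0183 with the block). Between replicate numbers 6 of the 24 differed (Tbx5, Tbx18, Shox2, Alx4, Meox1 and Pax1), beside 14.4% of all genes.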

How the data were processed

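The deposited table holds log2 expression values of 36685 features on 12 arrays, made by the authors with RMA in the oligo package, per the submitters' processing notes. Here 18511 features had 1 gene symbol (575 had several, 17599 none). Symbols were updated through gene identifiers to the RefSeq table of GRCr8 for 18394 of them and kept for 117. The brightest feature of a symbol stood for its gene, which gave 18166 genes, and 13636 with a mean above the 25th percentile (5.83) were tested.

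Groups were compared with limma 3.58.1 in R 4.3.3 (lmFit and eBayes, all 12 arrays in 1 fit), with Benjamini-Hochberg adjustment over 13636 genes and a threshold of 0.05. The median SE of a difference was 0.087. Same-numbered arrays of different groups correlated at 0.21 to 0.81 in their deviations from the group means over 18 pairs, and differently numbered ones at -0.71 to 0.10 over 36, so the numbers pair the arrays and a fit with the number as a block is given where it changes a call. Nothing in the labels ties each array to a separate animal, so p-values measure the spread between these cultures.

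Per-array values are given for Hox genes that passed with or without the block, for the 10 with the smallest p between replicate numbers and, where under 5 passed, for those with the smallest p up to 5. Of the other lists up to 4 members with the smallest p for the addition of trametinib are named, and other list members named were picked with values known. The Hox genes, the lists and the tests were chosen with earlier results of these data known, and the comparison of the combination with alprostadil, the paralog groups and Mir196c after the values were seen. Alternatives were other filters, the mean of a symbol's features, re-centred arrays, an intensity trend, only the 2 groups compared, the replicate block and the loss of each array. Promoter and microRNA sequences are RefSeq's on GRCr8. The build of the array's own annotation is not given in the sources used here.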

Additional observations from a re-analysis of the deposited data

How the results depend on the processing

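Counts are of Hox genes that passed by limma. For alprostadil against vehicle the count was 2, with 4 under the replicate block and 1 when only the 2 groups were fitted. It was 1 to 4 when each array was left out in turn, with and without the block. For the addition of trametinib to trimebutine it was 5, with 8 under the replicate block and 3 when only the 2 groups were fitted, and 2 to 9 without each array in turn. For the combination against vehicle the count of 6 became 3 to 8 without each array in turn, and for the combination against alprostadil the count of 7 became 5 to 10. The test of the 4 groups gave 7, and 5 to 11 without each array in turn. For trimebutine against vehicle the count was 0 in each alternative run, and for the replicate numbers it was 3 to 4. No difference of a named gene reversed its direction where it had passed. The replicate block changed the calls given in the report and no other call among the Hox genes. Of all genes, 53 passed for alprostadil, beside 257 under the block, 29 with only the 2 groups and 30 to 57 without each array in turn without the block. Hoxa9 against vehicle in the combination did not pass without the filter on low signal (adjusted p = 0.0537), nor did Hoxd4 (0.0522), where more genes are tested. Hoxb5 lay above the low-signal limit on 8 of 12 arrays and Hoxa2 on 11, and the 7 genes with a mean under it allow no statement on treatment differences.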
